A study of Homo sapiens with 6 samples.

Results

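The genes described here carry transforming growth factor beta (TGF-beta), activin and bone morphogenetic protein (BMP) signals to the nucleus through the SMAD proteins. A total of 45 were named by symbol as ligands, latency proteins, antagonists, receptors, SMADs, inhibitors, co-repressors and the ID targets. Of these, 43 had a probe set on the array and are described, out of 17687 named genes in 21448 probe sets, while TGFB2 and BMPR1A were not analysed here. None of the 43 had more than 1 probe set.

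The cells were HS578T, an established human breast carcinoma line of mesenchymal character, stably transfected with pcDNA 3 into which EP300 cDNA had been cloned (EP300 cultures) or with pcDNA 3 alone (control cultures). Both groups were selected with G418 as pools of at least 200 clones, grown in low-glucose DMEM with serum, glutamine, insulin and G418, and represented by 3 cultures and 3 arrays each. EP300 encodes a lysine acetyltransferase that many transcription factors, SMADs among them, recruit as a co-activator. The labels do not say whether the cultures of a group came from 1 pool, so the p-values measure the spread between cultures only.

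In this pathway a dimeric ligand is secreted, for the TGF-betas in a latent complex, and joins type II and type I receptor kinases at the cell surface. The TGF-beta and activin receptors phosphorylate SMAD2 and SMAD3, and the BMP receptors SMAD1, SMAD5 and SMAD9. These bind SMAD4, enter the nucleus and control genes such as the ID family and the pathway's own inhibitors. In breast carcinoma cells TGF-beta is known for an early restraint of growth and a later role in mesenchymal conversion and invasion.

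The values are log2 expression values, a scale inferred from their range. Array medians lay between 4.46 and 4.50 and lower quartiles between 3.47 and 3.50. Correlations over all probe sets were 0.977 to 0.981 between EP300 and control arrays, 0.978 to 0.980 among EP300 arrays and 0.979 to 0.981 among control arrays. All 8 mesenchymal markers measured lay above the median level, with means over all arrays from 13.0 to 19.8. Of 9 epithelial and luminal markers 4 did (ESR1, GATA3, KRT8 and KRT18), while CDH1 averaged 3.25 in EP300 and 2.54 in control cultures and EPCAM 3.35 in EP300 and 3.60 in control cultures. The means of 5 endothelial markers ran from 2.79 to 4.88 and those of 5 leukocyte markers from 3.59 to 6.72, with VWF, CD68 and CD3E above the array medians. No named probe set carries the symbol EP300, so the transgene's level was not analysed here.

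No pathway gene passed the test. At a limma adjusted p below 0.05, 0 of the 43 genes were called, as were 0 of 21448 probe sets (0%), and the members' adjusted p ran from 0.735 to 0.997. At an unadjusted limma p below 0.05 there were 3 members, FST, ID2 and BMP4, beside 6.52% of all probe sets. All 3 were higher in EP300 cultures, beside 3.45% of probe sets in that direction, and 0 were lower, beside 3.07%. The EP300 and control arrays did not overlap for 4 members, beside 12.2% of all probe sets. FST, ID2 and SMAD9 were the higher ones (6.3% of probe sets) and SKI the lower one (5.91%). These shares are near those of the array as a whole, so the counts are no result about the pathway. By mean, 25 members were higher in EP300 cultures and 18 were lower. Their median log2 difference was 0.09, against 0.001 over all probe sets. The differences ran from -0.51 (SMAD4) to 0.82 (FST), 6 exceeded 0.5 in size and 0 exceeded 1. For 31 members the 95% interval lay within -1 and 1, that is, within a 2-fold difference either way.

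**Figure D1:**
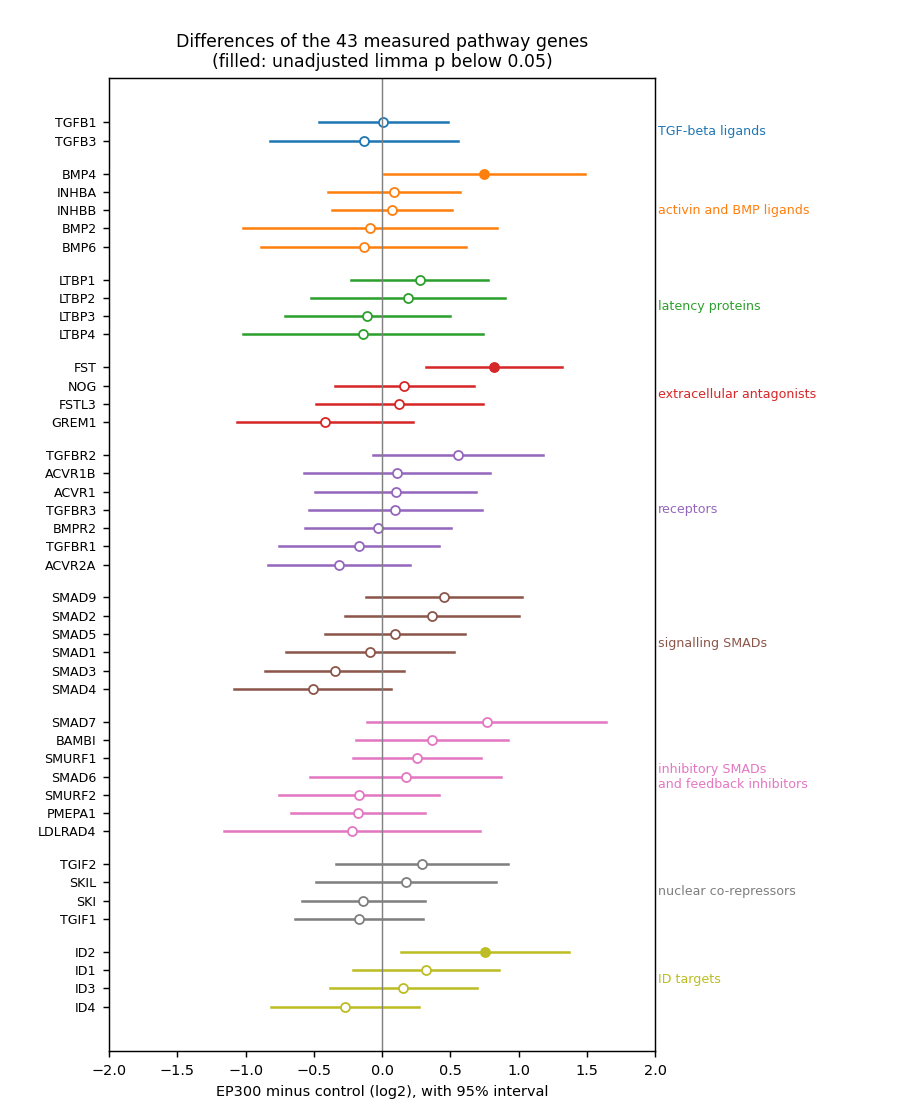
Log2 difference between EP300 and control cultures (horizontal axis, point) with limma's 95% interval (line) for the 43 measured genes, grouped by role, with filled points at an unadjusted limma p below 0.05. FST, ID2 and BMP4 are the filled points, at 0.82, 0.75 and 0.75, and the intervals of the open points include 0.

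The promoter windows of these 3 genes, and that of SMAD6, are shown. FST, ID2 and BMP4 are the members with an unadjusted p below 0.05, and SMAD6 is the 1 member whose window held the palindromic SMAD-binding element. Each window runs from 250 bases before to 50 after the RefSeq gene start (GRCh38.p14), 5′ to 3′ on the gene's strand. They lie at chr14:53955001-53955300 on the minus strand (BMP4), and on the plus strand at chr5:53480379-53480678 (FST), chr2:8681806-8682105 (ID2) and chr15:66701986-66702285 (SMAD6). Capitals mark GTCTAGAC, the separate motif CAGACA or the BMP-response letters GGCGCC, each searched on both strands and counted also where motifs overlap.
BMP4 promoter: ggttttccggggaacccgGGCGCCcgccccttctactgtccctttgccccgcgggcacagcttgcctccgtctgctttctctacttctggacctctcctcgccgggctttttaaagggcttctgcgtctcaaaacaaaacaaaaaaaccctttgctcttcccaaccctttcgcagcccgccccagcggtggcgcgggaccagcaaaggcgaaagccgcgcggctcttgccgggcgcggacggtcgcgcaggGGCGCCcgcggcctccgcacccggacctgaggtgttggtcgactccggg
FST promoter: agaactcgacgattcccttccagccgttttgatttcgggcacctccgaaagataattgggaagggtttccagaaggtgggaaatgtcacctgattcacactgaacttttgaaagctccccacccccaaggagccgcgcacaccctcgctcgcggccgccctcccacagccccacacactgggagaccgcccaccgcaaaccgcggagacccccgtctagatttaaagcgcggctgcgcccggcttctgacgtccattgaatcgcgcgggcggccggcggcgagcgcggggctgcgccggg
ID2 promoter: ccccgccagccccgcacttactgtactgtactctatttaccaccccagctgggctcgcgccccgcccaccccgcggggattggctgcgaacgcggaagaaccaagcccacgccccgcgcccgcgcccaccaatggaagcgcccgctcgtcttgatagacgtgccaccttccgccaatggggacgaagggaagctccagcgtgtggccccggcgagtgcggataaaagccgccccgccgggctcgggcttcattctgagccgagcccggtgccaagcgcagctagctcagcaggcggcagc
SMAD6 promoter: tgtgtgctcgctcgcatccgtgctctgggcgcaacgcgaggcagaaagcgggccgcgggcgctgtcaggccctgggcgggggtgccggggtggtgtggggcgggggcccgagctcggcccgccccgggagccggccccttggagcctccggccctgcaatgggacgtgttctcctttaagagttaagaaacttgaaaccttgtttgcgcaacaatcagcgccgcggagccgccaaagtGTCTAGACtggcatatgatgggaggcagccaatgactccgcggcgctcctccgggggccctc
The BMP4 window held GGCGCC at 2 places, SMAD6 held GTCTAGAC at 1, and the FST and ID2 windows held none of the 3 motifs. Windows were given for 42 of the 45 genes, all but BMP2, NOG and SKI. GTCTAGAC stood in 1 of the 42 (2.38%), against 0.201% of all 27305 promoters. CAGACA stood in 9 (21.4%), against 16.8%, and GGCGCC in 16 (38.1%), against 19.0%. The members' windows had a median GC content of 70.4%, against 58.3% over all promoters, and its part in the GGCGCC share was not tested.

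The TGF-beta ligands differed little. TGFB1, the main ligand of mesenchymal and carcinoma cells, read 11.06, 11.32 and 10.92 in EP300 cultures, against 11.21, 11.00 and 11.07 in control cultures. The groups overlapped, with EP300 replicate 2 the highest array and EP300 replicate 3 the lowest, and the difference of 0.007 ± 0.21 (SE) had a 95% interval from -0.47 to 0.48. TGFB3, a second isoform, read 4.20, 3.68 and 3.66 in EP300 cultures, against 3.87, 3.47 and 4.59 in control cultures. Control replicate 3 was the highest of the 6 arrays, and the difference was -0.13 ± 0.31 (SE). Both group means of TGFB3 lay below the array medians, where the background is unknown.

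Among the activin and BMP ligands BMP4 differed most. BMP4, which signals through SMAD1, SMAD5 and SMAD9, read 6.47, 7.52 and 6.78 in EP300 cultures, against 5.73, 6.66 and 6.13 in control cultures. The groups overlapped, since EP300 replicate 1 lay below control replicate 2. The difference was 0.75 ± 0.33 (SE), or 1.68-fold. Its 95% interval ran from 0.01 to 1.48, and limma gave an adjusted p of 0.765. Without EP300 replicate 2, the highest array, it was 0.45. BMP6 read 3.95, 3.58 and 3.05 in EP300 cultures, against 3.70, 3.07 and 4.22 in control cultures, a difference of -0.14 ± 0.34 (SE). The groups overlapped, with EP300 replicate 3 the lowest array and control replicate 3 the highest. INHBA, which encodes the activin A subunit, read 16.30 ± 0.24 in EP300 and 16.21 ± 0.08 in control cultures (SD, n = 3 each), and its interval from -0.40 to 0.57 lay within a 2-fold difference. INHBB, the activin B subunit, read 6.08, 5.98 and 5.94 in EP300 cultures, against 5.97, 5.85 and 5.97 in control cultures, and had the smallest standard error of the members. BMP2 was among the widest, from 4.43 to 5.55 in EP300 and from 4.26 to 5.88 in control cultures, with a difference of -0.09 and an interval from -1.02 to 0.84.

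The latent TGF-beta binding proteins are a family of matrix proteins, of which LTBP1 tethers the latent complex to the matrix. LTBP1 read 10.23, 9.79 and 10.18 in EP300 cultures, against 9.98, 9.60 and 9.80 in control cultures. EP300 replicate 2 lay below control replicates 1 and 3, and the difference of 0.27 ± 0.22 (SE) had a limma adjusted p of 0.883 and was 0.18 without control replicate 2. LTBP2 read 6.17, 5.70 and 6.57 in EP300 cultures, against 5.37, 6.17 and 6.33 in control cultures. Its groups overlapped, with a difference of 0.19 ± 0.32 (SE). LTBP3 and LTBP4 differed by -0.11 and -0.14, and the LTBP4 values spread from 2.94 to 4.48 in EP300 and from 3.44 to 4.35 in control cultures.

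Of the extracellular antagonists, FST had the smallest p of all members. FST encodes follistatin, which binds activins and keeps them from their receptors. It read 4.57, 4.50 and 4.88 in EP300 cultures, against 4.03, 3.86 and 3.60 in control cultures, so every EP300 array was above every control array. The difference was 0.82 ± 0.22 (SE), or 1.76-fold, with a 95% interval from 0.32 to 1.32. FST ranked at 125 of 21448 probe sets by p, and its limma adjusted p was 0.735. Complete separation of 3 from 3 arrays has an exact permutation p of 0.1 (two-sided), and no smaller p can be reached. Leaving out any 1 array kept the difference between 0.70 and 0.92. The control mean of 3.83 lay below the array medians, where the background is unknown and may compress a difference. In a culture, more cells with the transcript and more transcript per cell cannot be told apart, here or below.

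FSTL3, a follistatin relative, read 5.62 ± 0.02 in EP300 and 5.49 ± 0.52 in control cultures (SD, n = 3 each), with control replicate 3 at 4.90 the lowest array. NOG, encoding the BMP antagonist noggin, differed by 0.16 ± 0.23 (SE). GREM1, encoding the BMP antagonist gremlin, read 3.28, 2.36 and 3.06 in EP300 cultures, against 2.94, 3.54 and 3.48 in control cultures. Its groups overlapped, both means lay below the lower quartile of every array, and the difference was -0.42 ± 0.29 (SE, limma adjusted p = 0.854). Without EP300 replicate 2 it was -0.15.

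**Figure D2:**
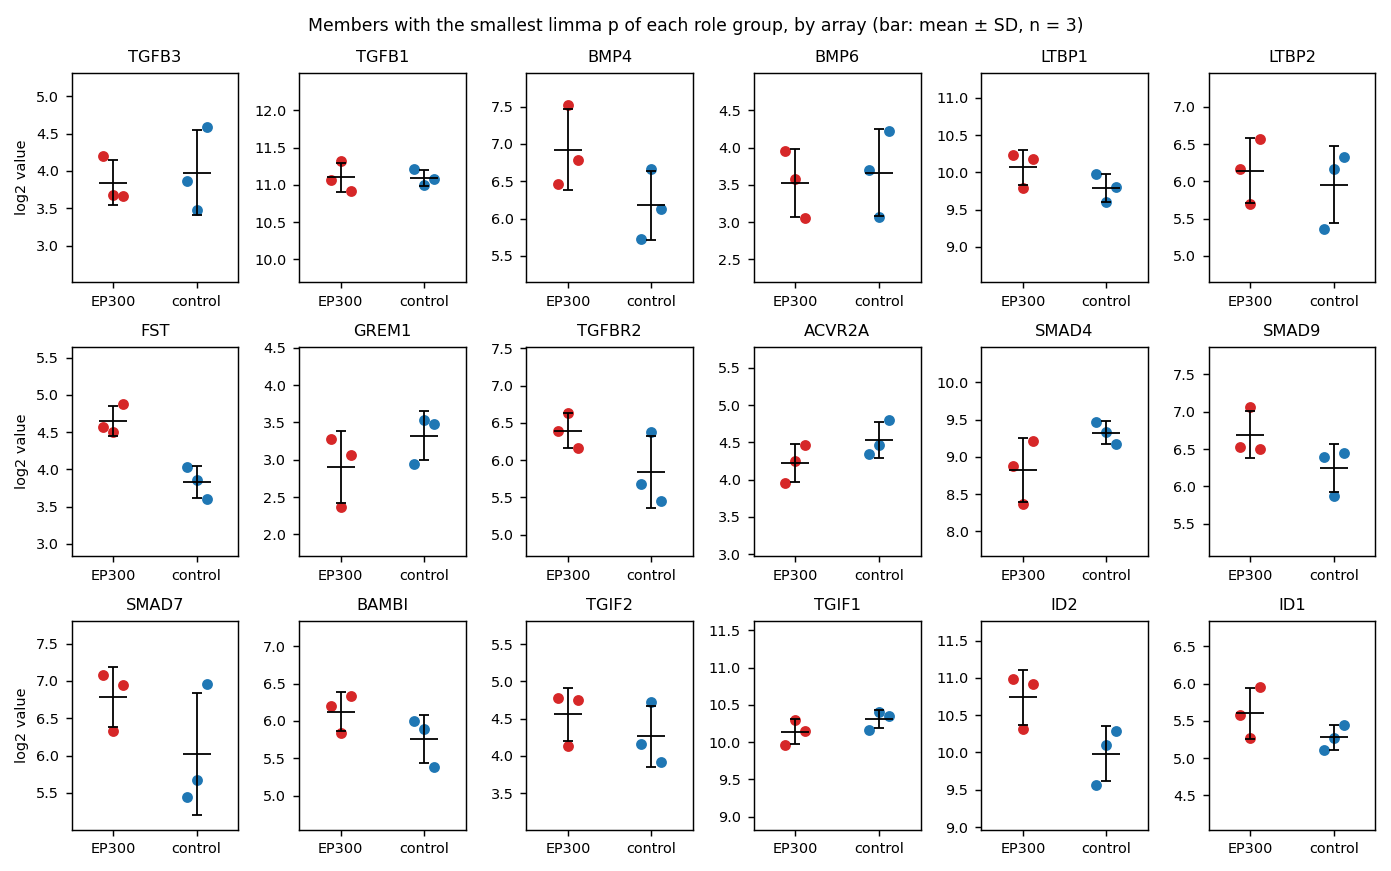
Log2 values (vertical axis, each panel spanning the same log2 range around its own middle) of 18 members, those 2 with the smallest limma p in each role group, for the 3 EP300 arrays (red, left) and the 3 control arrays (blue, right), with mean and SD. The groups are separate for FST, ID2 and SMAD9 and overlap for the others, and control replicate 3 of SMAD7 stands among the EP300 values.

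Of the 7 receptors measured, 4 had a higher and 3 a lower mean in EP300 cultures, with a median difference of 0.10. TGFBR2, the type II receptor kinase that binds TGF-beta, read 6.40, 6.63 and 6.16 in EP300 cultures, against 5.67, 6.38 and 5.46 in control cultures. Control replicate 2 reached into the EP300 range while the other control arrays lay below it. The difference was 0.56 ± 0.28 (SE), while its interval ran from -0.06 to 1.18, and by limma the adjusted p was 0.791. It lay between 0.37 (without control replicate 3) and 0.83 as 1 array was left out. TGFBR1, its type I partner, had a difference of the other sign, -0.17 ± 0.26 (SE), with values from 8.10 to 8.36 in EP300 and from 7.99 to 8.89 in control cultures. TGFBR3, the co-receptor betaglycan, differed by 0.10 ± 0.28 (SE).

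The activin type II receptor gene ACVR2A read 3.95, 4.25 and 4.46 in EP300 cultures, against 4.34, 4.46 and 4.80 in control cultures. The groups overlapped, with a difference of -0.32 ± 0.23 (SE, limma adjusted p = 0.867) that was -0.18 without control replicate 3. ACVR1B and ACVR1, type I receptors for activin and for BMPs, differed by 0.11 and 0.10. BMPR2, the BMP type II receptor, read 7.91 ± 0.30 in EP300 and 7.94 ± 0.23 in control cultures (SD, n = 3 each).

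The 6 signalling SMADs split evenly, 3 higher and 3 lower by mean, and all were above the median level. SMAD4, the partner shared by both branches, read 8.87, 8.36 and 9.22 in EP300 cultures, against 9.47, 9.34 and 9.17 in control cultures. EP300 replicate 3 lay above control replicate 3, so the groups overlapped. The difference of -0.51 ± 0.26 (SE), 1.42-fold lower in EP300 cultures, was the lowest of all members. Its interval reached 0.07 at the upper end and -1.08 at the lower, and by limma the adjusted p was 0.792. It was -0.28 without EP300 replicate 2, the lowest array.

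SMAD2 and SMAD3, which carry TGF-beta and activin signals, differed in opposite directions. SMAD2 read 7.55, 8.64 and 8.16 in EP300 cultures, against 7.91, 7.70 and 7.64 in control cultures, a difference of 0.37 ± 0.28 (SE). EP300 replicate 1 was the lowest of the 6 arrays and the other EP300 arrays were the highest, and without EP300 replicate 2 the difference was 0.10. SMAD3 read 9.32, 9.10 and 9.54 in EP300 cultures, against 9.75, 9.86 and 9.39 in control cultures, a difference of -0.35 ± 0.23 (SE). Their limma adjusted p was 0.873 and 0.842, and the difference between the genes was not tested.

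On the BMP side, SMAD9 read 6.52, 7.06 and 6.49 in EP300 cultures, against 6.40, 5.87 and 6.45 in control cultures. The groups did not overlap, but EP300 replicate 3 and control replicate 3 were nearly the same. The difference was 0.45 ± 0.26 (SE), and its interval of -0.12 to 1.03 included 0 (limma adjusted p = 0.812). Without control replicate 2, the lowest array, it was 0.27. SMAD5 read 11.00 ± 0.20 in EP300 and 10.90 ± 0.26 in control cultures, and SMAD1 read 4.85 ± 0.50 in EP300 and 4.94 ± 0.16 in control cultures (SD, n = 3 each).

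The inhibitory SMADs and feedback inhibitors had a median difference of 0.17 over 7 genes, 4 higher and 3 lower. SMAD7, a target of the pathway that blocks its receptors, read 7.08, 6.33 and 6.95 in EP300 cultures, against 5.44, 5.67 and 6.96 in control cultures. Control replicate 3 lay with the EP300 arrays and the other control arrays below them. The difference was 0.76 ± 0.39 (SE), 1.70-fold, and its interval of -0.11 to 1.64 included 0 (limma adjusted p = 0.792). It was 1.23 without control replicate 3 and 0.47 without control replicate 1, so single control arrays moved it most.

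BAMBI, a receptor-like protein without a kinase domain that dampens signalling, read 6.20, 5.84 and 6.34 in EP300 cultures, against 5.996, 5.89 and 5.39 in control cultures. The groups overlapped, and the difference was 0.37 ± 0.25 (SE, limma adjusted p = 0.847). It was 0.18 without control replicate 3, the lowest array. SMAD6, which restrains BMP signalling and whose promoter window is shown above, read 3.88, 5.14 and 4.78 in EP300 cultures, against 4.48, 4.32 and 4.49 in control cultures. The EP300 arrays lay on both sides of the control arrays, and the difference was 0.17 ± 0.31 (SE).

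PMEPA1 and LDLRAD4, related membrane proteins that hold SMAD2 and SMAD3 back from the receptor, differed by -0.18 and -0.22. LDLRAD4 had the largest standard error of the members, 0.42, with control replicate 1 at 5.70 and the other arrays from 3.95 to 4.77. SMURF1 and SMURF2, ubiquitin ligases for SMADs and receptors, differed by 0.26 ± 0.21 and -0.17 ± 0.26 (SE). Without control replicate 1 the SMURF1 difference was 0.16 and that of PMEPA1 -0.083.

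Of the 4 nuclear co-repressors, which bind SMAD complexes and lower their activity, 2 were higher and 2 lower by mean. TGIF2 read 4.78, 4.14 and 4.75 in EP300 cultures, against 4.16, 4.72 and 3.92 in control cultures, a difference of 0.29 ± 0.28 (SE) with overlap that was 0.12 without control replicate 3. TGIF1 read 9.96, 10.30 and 10.16 in EP300 cultures, against 10.17, 10.41 and 10.36 in control cultures, a difference of -0.17 ± 0.21 (SE) with overlap that was -0.082 without EP300 replicate 1. SKI read 5.21, 5.46 and 5.41 in EP300 cultures, against 5.54, 5.48 and 5.48 in control cultures. Its groups did not overlap, by a margin so small that they overlapped once the arrays were centred on their medians, and the difference was -0.14 ± 0.20 (SE), or -0.063 without EP300 replicate 1. SKIL, a SKI relative and a target of the pathway, differed by 0.17 ± 0.29 (SE).

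The ID genes encode inhibitors of basic helix-loop-helix factors and are among the best known BMP targets, and 3 of the 4 had a higher mean in EP300 cultures. ID2 read 10.98, 10.32 and 10.92 in EP300 cultures, against 9.57, 10.11 and 10.29 in control cultures. The groups did not overlap, though EP300 replicate 2 lay just above control replicate 3. The difference was 0.75 ± 0.28 (SE), 1.69-fold, and its 95% interval ran from 0.14 to 1.37 (limma adjusted p = 0.746). It ranged from 0.54 to 0.97 as 1 array was left out.

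ID1 read 5.58, 5.27 and 5.95 in EP300 cultures, against 5.11, 5.27 and 5.45 in control cultures, a difference of 0.32 ± 0.24 (SE) with overlap that was 0.15 without EP300 replicate 3. ID3 read 11.38 ± 0.38 in EP300 and 11.22 ± 0.05 in control cultures (SD, n = 3 each), with EP300 replicate 2 at 11.80 the highest array. ID4 had the other sign, at 4.14 ± 0.05 in EP300 and 4.42 ± 0.38 in control cultures (SD, n = 3 each), a difference of -0.27 that was -0.13 without control replicate 1. Both ID4 means lay below the array medians, where the background is unknown. The same holds for BMP6, LTBP4, NOG, TGFBR3 and ACVR1B above. For ACVR2A and LDLRAD4 only the EP300 mean lay below them, and for TGIF2 and SMAD6 only the control mean. The median difference of the 4 ID genes was 0.24, against 0.001 over all probe sets.

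**Figure D3:**
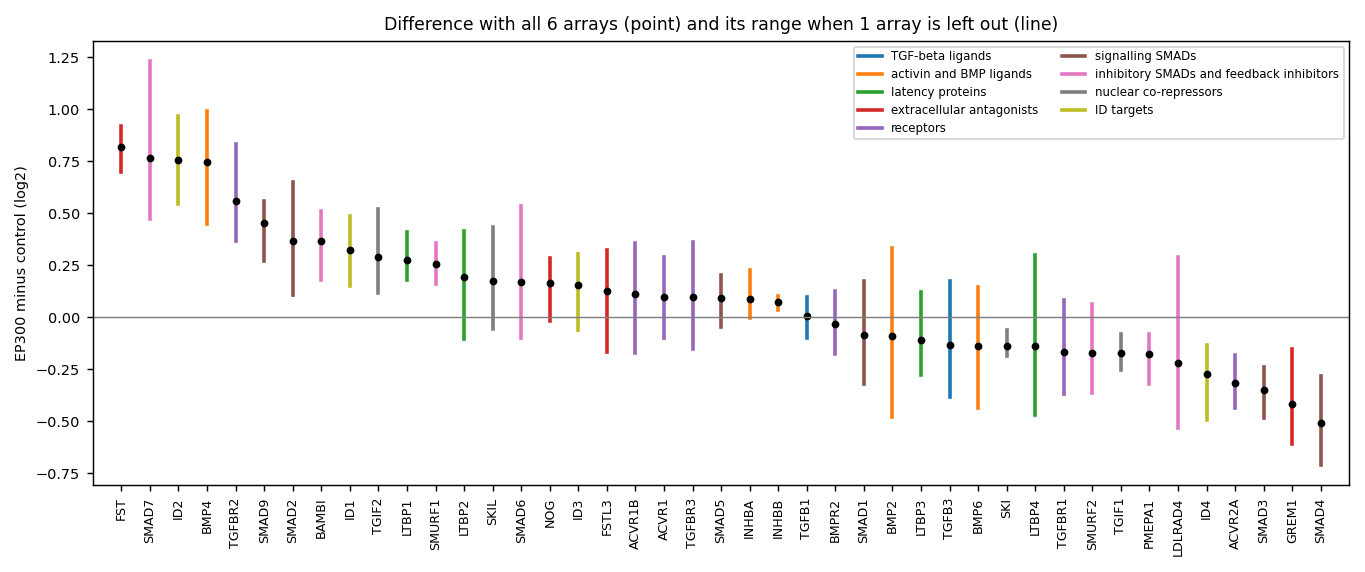
Log2 difference between EP300 and control cultures with all 6 arrays (point) and its lowest and highest value when 1 array was left out (line), for the 43 members in order of their difference. The line crosses 0 for 22 members, none of which differed by more than 0.22, and stays clear of 0 for FST, ID2, BMP4, SMAD7 and SMAD4.

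Other genes of the pathway were taken from lists that hold no member. For these lists too the counts at an unadjusted limma p below 0.05 stand beside 3.07% of all probe sets that were lower and 3.45% that were higher. Of 23 other ligands 2 were lower and 0 were higher. LEFTY2, which encodes an inhibitor of nodal signalling, read 4.44, 4.11 and 4.46 in EP300 cultures, against 5.13, 4.92 and 5.73 in control cultures, a difference of -0.92 ± 0.26 (SE, limma adjusted p = 0.735). Every EP300 array was below every control array. Its close relative LEFTY1 differed by 0.41 ± 0.21 (SE), and signal shared between the near-identical genes was not separated. The LEFTY2 mean in EP300 cultures, 4.34, and both LEFTY1 means lay below the array medians, where the background is unknown. GDF7, a BMP-like ligand, differed by -0.45 ± 0.20 (SE) at a level below the array medians.

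Of 9 other receptors and co-receptors 7 were higher by mean, beside 10765 of all 21448 probe sets, with a median of 0.36. Only 3 of the 9 lay above the median level. RGMB, a BMP co-receptor, was the 1 gene at an unadjusted p below 0.05, with a difference of 0.54 ± 0.24 (SE). ACVR1C and AMHR2 differed by -0.51 ± 0.26 and 0.43 ± 0.23 (SE), both at levels below the array medians. Their values were -0.33 without control replicate 3 (ACVR1C) and 0.25 without EP300 replicate 1 (AMHR2). Of 10 other antagonists, CHRD, which encodes the BMP antagonist chordin, differed by 0.52 ± 0.23 (SE). SOSTDC1 and CHRDL1, also BMP antagonists, followed at 0.23 ± 0.25 and 0.16 ± 0.26 (SE), and all group means of these genes lay under the arrays' lower quartiles. SOSTDC1 was at 0.054 without EP300 replicate 3 and CHRDL1 at -0.0060 without control replicate 1. Of 7 genes of latency and activation, 0 had an unadjusted limma p below 0.05. ITGAV, an integrin subunit that can release latent TGF-beta, read 9.38, 9.59 and 9.32 in EP300 cultures, against 8.91, 8.62 and 9.24 in control cultures, without overlap and with a difference of 0.51 ± 0.23 (SE). THBS1, a matrix protein that can activate latent TGF-beta, differed by 0.35 ± 0.21 (SE), and ITGB8, another integrin subunit of that kind, by -0.50 ± 0.31 (SE), with both means under the lower quartiles. The ITGB8 difference was -0.23 without control replicate 1. Of 13 intracellular partners, MAP3K7, the TGF-beta-activated kinase TAK1, was the 1 gene at an unadjusted p below 0.05, at 0.57 ± 0.24 (SE), or 0.37 without control replicate 3. HIPK2 and the ubiquitin ligase gene WWP1 differed by 0.45 ± 0.22 and 0.41 ± 0.21 (SE). By limma the adjusted p of the genes named in this paragraph lay between 0.759 and 0.936.

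Genes known to respond to TGF-beta in many cells were lower by mean in EP300 cultures in 14 of 18 cases, with a median difference of -0.33. At an unadjusted limma p below 0.05, 5 were lower and 0 higher, beside 3.07% of all probe sets that were lower. The EP300 arrays lay wholly below the control arrays for 8 of the 18, beside 5.91% of all probe sets. They lay wholly above them for 1, CDKN1A, beside 6.3%. The 4 genes higher by mean were CDKN1A, JUNB, KLF10 and IL11. They differed by 0.38 ± 0.20, 0.31 ± 0.27, 0.21 ± 0.23 and 0.02 ± 0.21 (SE), and the control mean of JUNB lay below the array medians. The 18 genes were listed with lower values of several of them already known, so the counts are no independent support for a direction. Whether TGF-beta signalling differed between the cultures was not tested.

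TAGLN, which encodes the actin-binding protein transgelin, read 13.71, 13.95 and 13.66 in EP300 cultures, against 15.10, 15.08 and 14.67 in control cultures. The groups lay well apart, with a difference of -1.18 ± 0.22 (SE) and a limma adjusted p of 0.476. TAGLN passed in 1 setting, a variance trend with robust estimation (limma adjusted p = 0.034). ACTA2, smooth muscle actin, read 13.33, 13.32 and 13.28 in EP300 cultures, against 14.05, 14.24 and 14.05 in control cultures, a difference of -0.80 ± 0.20 (SE). LOX, the collagen cross-linking enzyme, differed by -0.67 ± 0.20 (SE), the matricellular gene CCN2 by -0.50 ± 0.22 (SE) and the collagen gene COL1A2 by -0.49 ± 0.22 (SE), and their arrays did not overlap either. For ACTA2, LOX, CCN2 and COL1A2 the limma adjusted p ran between 0.735 and 0.765. The count of 5 was 3 without EP300 replicate 1, without EP300 replicate 3 or without control replicate 1, with ACTA2, LOX and TAGLN in each case. TGFBI was at the array ceiling on 5 of the 6 arrays, which caps its values. KRT18, a keratin gene among the epithelial markers, differed by -1.11 ± 0.23 (SE, limma adjusted p = 0.592), and THY1, a fibroblast surface marker, by -0.75 ± 0.20 (SE, limma adjusted p = 0.735). Of the 9 epithelial and luminal markers 5 had a higher and 4 a lower mean in EP300 cultures, with a median difference of 0.11. CDH1 differed by 0.71 ± 0.36 (SE, limma adjusted p = 0.792) and KRT8 by 0.37 ± 0.24 (SE, limma adjusted p = 0.836), both with overlap. CDH1 read 4.02, 2.81 and 2.92 in EP300 cultures, against 3.04, 2.51 and 2.08 in control cultures. EP300 replicates 2 and 3 lay below control replicate 1, and both CDH1 means lay under the arrays' lower quartiles. The mean log2 level of the epithelial and luminal list ran from 4.77 to 4.87 on EP300 arrays, against 4.78 to 4.92 on control arrays. Of the 8 mesenchymal markers 5 had a lower mean, and AXL differed by 0.40. VIM read the same 18.60 on all 6 arrays, so its values cannot show a difference. SPARC was at the array ceiling on control replicates 2 and 3, which caps its values. The mean level of the mesenchymal list ran from 15.51 to 15.61 on EP300 arrays, against 15.68 to 15.76 on control arrays, without overlap. THY1 is in that list and had its largest difference, -0.75, so the gap does not describe every marker. The part of THY1 in that gap was not tested. FN1 stands both in the mesenchymal list and among the TGF-beta response genes, so the lists are not separate. The part of these markers in the values of the response genes was not tested.

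**Figure D4:**
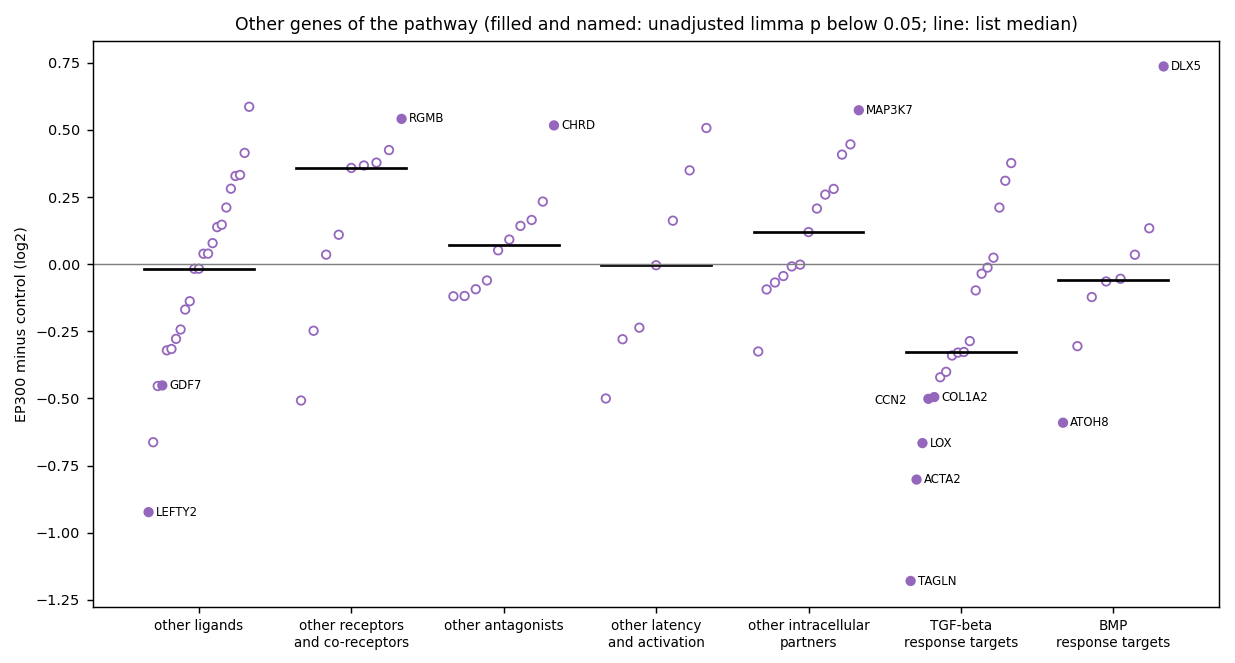
Log2 difference between EP300 and control cultures (vertical axis) for each measured gene of 7 lists that hold no member, with the list median as a line and genes at an unadjusted limma p below 0.05 filled and named. The TGF-beta response targets have the lowest median, -0.33, with TAGLN lowest at -1.18, and the BMP response targets lie on both sides of 0.

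Of 8 further BMP response targets, 3 were higher and 5 lower by mean. DLX5, a homeobox gene of bone formation, read 5.76, 5.48 and 5.69 in EP300 cultures, against 4.29, 5.08 and 5.35 in control cultures. The groups did not overlap, with a difference of 0.74 ± 0.29 (SE, limma adjusted p = 0.748) that was 0.43 without control replicate 1, the lowest array. ATOH8 differed by -0.59 ± 0.26 and RUNX2 by -0.31 ± 0.29 (SE), the RUNX2 value being -0.073 without control replicate 1. DLX5 and ATOH8, both at an unadjusted p below 0.05, thus had opposite signs.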

How the data were processed

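Total RNA of 6 HS578T cultures, 3 EP300 and 3 control, was labelled with an Affymetrix WT PLUS kit, per the labels' protocols, and hybridised to 1 array each. The deposited table holds 1 log2 value per probe set and array, made by the authors with Partek 6.6 per the submitters' processing notes. The log2 scale was inferred from the values (1.787 to 19.93), while the normalization, background correction and genome build used for it were not given in the sources used here. Precision is limited by the number of arrays.

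Gene symbols came from GEO's platform annotation, which gave 1 symbol for 17709 and none for 3739, with several for 0. Each gene was its probe set with the highest mean. EP300 minus control was estimated by limma 3.58.1 in R 4.3.3 (lmFit, eBayes) on all 21448 probe sets, with no filter or block. Benjamini-Hochberg adjustment was over all of them, with a threshold of 0.05. The fit was tested on simulated data with changes larger than any member's difference here. That test does not bear on differences of the members' size. Errors are SD over 3 cultures or limma's SE. Values on every array are given for members at an unadjusted p below 0.05 and, in each role group, for the 2 members of smallest p. From the lists without members, genes at an unadjusted p below 0.05 and the 3 with the smallest p are named. SMAD6, SKI, SMAD2, SMAD3 and INHBB were picked out after their values were seen. So were KRT18, THY1, CDH1, KRT8, EPCAM, AXL, VIM, SPARC, TGFBI, CDKN1A, JUNB, KLF10 and IL11. Members and lists were chosen with earlier results of these data known. Motifs were counted in RefSeq promoters. The other normalizations, filters, fits and left-out arrays tried are given below.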

Additional observations from a re-analysis of the deposited data

How the results depend on the processing

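In 14 alternative settings 0 members were called, and the lowest limma adjusted p of any member was 0.581. The setting without the 19 constant probe sets, and the counts of TGF-beta response targets across settings, were chosen after seeing the data. With a variance trend and robust estimation 4 probe sets were called over the whole array, none of them a member. The members at an unadjusted p below 0.05 numbered 3 with all arrays (6.52% of all probe sets). They numbered 1 (ID2) once probe sets under the median level were dropped, which left 32 members (7.91% of the probe sets left). FST, with a mean of 4.24 over all arrays, was itself dropped there, while BMP4 was kept and no longer reached that p. With 1 array left out the members at that p numbered 1 to 4 (1, FST, without control replicate 1), beside 5.71% to 6.45% of all probe sets. The members without overlap numbered 7 to 10 with 1 array left out, when 21.6% to 23.1% of all probe sets did not overlap, because fewer arrays overlap less. The TGF-beta response targets lower at an unadjusted p below 0.05 numbered 3 with median centring and 3 to 5 with 1 array left out. Among probe sets above the median level the co-repressor median was -0.14, over the 3 members left. The cause of the other changes was not tested. Replicate numbers did not pair the samples (the deviations of same-numbered arrays correlated at -0.0015, -0.0053 and -0.0089), and a fit with the replicate number as a block gave 5 members at an unadjusted p below 0.05, 3 TGF-beta response targets that were lower at that p and 0 calls, beside 6.04% of all probe sets at an unadjusted p below 0.05. A mean over several probe sets of a member was not run, because no member has more than 1.

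The sign of 22 members' differences, all at most 0.22 in size, changed in at least 1 setting. So did that of CHRDL1 among the 23 other genes named by their p. As 1 array was left out in turn, the difference ran for TGFB1 from -0.10 to 0.10, LTBP3 from -0.28 to 0.12, LTBP4 from -0.47 to 0.30, BMP2 from -0.48 to 0.33, SMAD1 from -0.32 to 0.17, SMAD6 from -0.10 to 0.53, SMURF2 from -0.36 to 0.063, ID3 from -0.060 to 0.30. It ran for INHBA from -0.0043 to 0.23, BMP6 from -0.43 to 0.14, LTBP2 from -0.10 to 0.42, TGFBR3 from -0.15 to 0.36, ACVR1 from -0.10 to 0.29, ACVR1B from -0.17 to 0.36, BMPR2 from -0.18 to 0.12, SMAD5 from -0.047 to 0.20. It ran for LDLRAD4 from -0.53 to 0.29, SKIL from -0.056 to 0.44, CHRDL1 from -0.0060 to 0.34, TGFB3 from -0.38 to 0.18, FSTL3 from -0.17 to 0.32, NOG from -0.018 to 0.28, TGFBR1 from -0.37 to 0.081. TGFB1 was also at -0.013 after quantile normalization. The other 21 members kept their sign in all settings run.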
